A study of Mus musculus with 8 samples.

Results

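The genes described here act on one protein, the amyloid precursor protein, and on the peptide cut from it. They are App itself, the β-secretase gene Bace1, the γ-secretase genes Psen2, Psenen, Ncstn and Aph1a, the α-secretase gene Adam10, and Ide and Mme, which encode enzymes that degrade amyloid-β (Aβ). These 9 genes were taken by symbol from the 18193 genes that a probe set of the array names alone. They are read by 27 probe sets, and each gene is described by its brightest probe set on average, with the others given beside it.

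RNA of the hippocampus of female mice was hybridised to 8 one-colour Affymetrix mouse arrays. Tg6799 mice (MT) carry transgenes for human APP and a human presenilin, both with mutations of familial Alzheimer's disease (AD), under promoter sequence of Thy1, a gene of neurons, and their littermates (LM) are the controls. The groups were LM4m and MT4m at 4 months of age and LM8m and MT8m at 8 months, with 2 arrays each, and the labels give Tg6799 as the strain of all of them. Whether replicate arrays are separate animals is not given in the labels, and the p-values therefore reflect only how far these samples differ, which may be technical. The probes were designed against mouse sequence and need not read the human transgenes, and whether they bind transgene RNA was not tested.

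Aβ is released when β-secretase cuts the precursor outside the membrane and γ-secretase, a complex of 4 kinds of subunit, then cuts the remaining stub inside it. Cleavage by α-secretase lies within the Aβ sequence and precludes its release. Insulin-degrading enzyme and neprilysin, the products of Ide and Mme, are among the peptidases that clear the peptide in brain tissue.

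The promoters of App and Adam10 are shown because App encodes the precursor that the secretases cut and Adam10 holds the probe set with the largest difference between genotypes. The sequences are the 250 bases before the transcription start in RefSeq (GRCm38.p6). The App window is chr16:85173708-85173957 on the minus strand and the Adam10 window is chr9:70678732-70678981 on the plus strand. Capitals mark the GC box, searched as GGGCGG on either strand, overlapping matches included.
App: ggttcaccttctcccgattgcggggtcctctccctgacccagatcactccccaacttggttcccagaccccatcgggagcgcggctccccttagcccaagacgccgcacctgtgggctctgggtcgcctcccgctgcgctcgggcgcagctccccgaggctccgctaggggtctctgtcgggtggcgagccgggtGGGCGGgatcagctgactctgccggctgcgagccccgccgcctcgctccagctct
Adam10: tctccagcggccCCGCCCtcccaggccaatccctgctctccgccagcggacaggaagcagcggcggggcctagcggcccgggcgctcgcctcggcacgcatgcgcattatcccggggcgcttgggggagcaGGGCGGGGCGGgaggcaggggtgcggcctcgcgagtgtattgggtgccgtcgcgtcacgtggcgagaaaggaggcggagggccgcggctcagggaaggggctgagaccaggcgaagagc
The App window held 1 GC box and the Adam10 window 3, of which a pair overlaps. G and C made up 70.8% of the App window and 74.0% of the Adam10 window, against a median of 52.4% over all 32851 windows of this length. The dinucleotide CG occurred 23 times in the App window and 29 times in the Adam10 window, and the median window held 6. Windows were found for 8 of the 9 genes, 12 windows in all, and not for Bace1. The Ide window, at 42.8% G and C, held 0 CG dinucleotides. A GC box was present in 7 of the 12 windows, every window of Mme among them, and in 32.7% of all windows. Windows of the same gene are not independent, and a pair of those of Mme overlaps. The letters CCAAT, searched on both strands, were in 6 of the 12 and in 33.8% of all windows, and TATAAA was in 0 of the 12 and in 12.4% of all windows. These matches describe letters in the windows and not factor binding.

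Before the members were compared, the labels and arrays were checked. Thy1, whose sequence drives the transgenes, lay between 9.53 and 9.96 on the 4 littermate arrays and between 11.73 and 11.82 on 3 mutant arrays. On the library labelled MT8m replicate 1, however, Thy1 was 9.90, within the littermate range, and Cst7, a gene of microglia around plaques, was 1.75 against 8.03 on its replicate. It is therefore named as the library labelled MT8m replicate 1, and many, though not all, of the main values it enters are also given without it. The 7 markers of hippocampal neurons were all measured, with gene means between 5.21 and 8.85. On LM4m replicate 1 and LM8m replicate 1 the control probe sets for the 3′ end of Gapdh exceeded those for its 5′ end by 2.19 and 1.42, against 0.66 to 1.17 on the other arrays.

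The directions below follow the sample labels. The supplementary gene tables of the study give these same arrays the opposite genotype names, so signed differences here oppose those tables. Values in each group are given in replicate order. A difference is in log2 units, MT minus LM or 8 minus 4 months, from limma with 2 arrays a group and 4 groups in 1 fit. A probe set passed at a Benjamini-Hochberg adjusted p under 0.05 over 45037 probe sets.

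App encodes the precursor that the secretases cut, and its values differed little between genotypes or ages. Its main probe set (1427442_a_at) read 11.17 and 11.20 in LM4m, 11.06 and 11.21 in MT4m, 11.32 and 11.20 in LM8m, and 11.36 and 11.17 in MT8m. The groups overlapped at both ages, and all 8 arrays lay within 0.30 log2 units, a range wider than that of 13.1% of genes. The genotype difference averaged over ages was -0.02 ± 0.09 (SE), with a 95% interval from -0.23 to 0.19, that is from 0.851-fold to 1.14-fold. At 4 months it was -0.05 (95% interval -0.35 to 0.25) and at 8 months 0.01 (-0.29 to 0.30). The age difference averaged over genotypes was 0.11 ± 0.09. In bulk tissue, fewer cells of a type and less RNA per cell cannot be told apart.

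The other bright probe set of App (1420621_a_at) varied more. It read 8.97 and 9.63 in LM4m, 9.55 and 9.87 in MT4m, 9.47 and 9.74 in LM8m, and 9.81 and 9.61 in MT8m. LM4m replicate 1 was the lowest of the 8, and the remaining 7 lay within 9.47 to 9.87. Its difference at 4 months was 0.41, with a 95% interval from -0.11 to 0.93, and without LM4m replicate 1 it was 0.08. The remaining probe sets, 1438373_at and 1438374_x_at, stayed between 1.20 and 1.63 on all arrays.

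**Figure D1:**
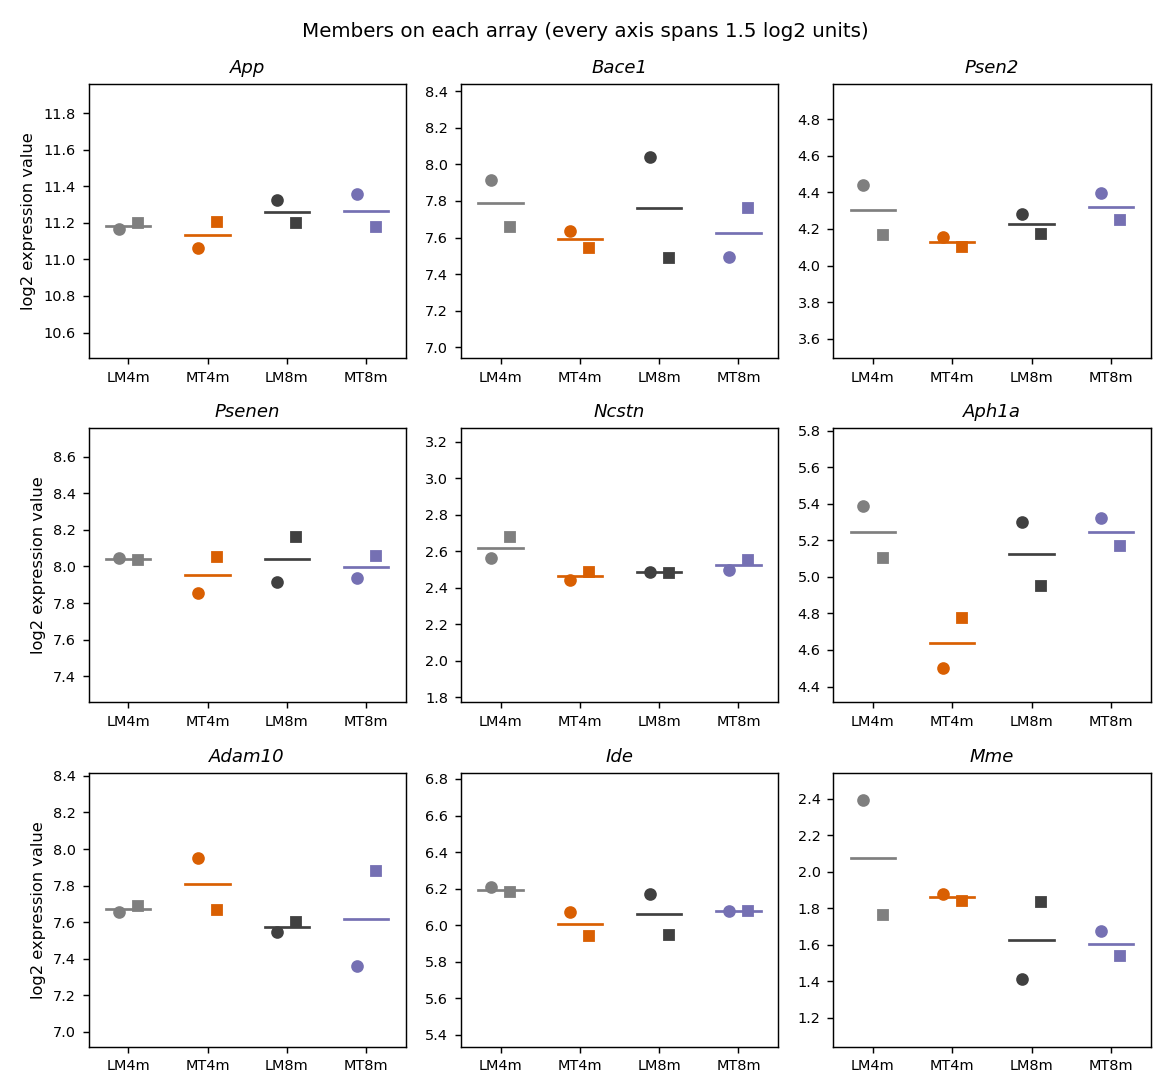
Log2 expression value (y axis) of each member's main probe set in the 4 groups (x axis). Circles are replicate 1, squares replicate 2 and bars the mean of the 2 arrays. Every panel spans the same height, App stays within 0.30 log2 units, and both MT4m arrays lie below all the others for Aph1a and, by 0.01, for Psen2. The share of all genes with such a separation was not computed.

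Bace1 encodes the β-secretase of the brain, which makes the first cut towards Aβ. Its main probe set (1455826_a_at) read 7.91 and 7.66 in LM4m, 7.64 and 7.54 in MT4m, 8.04 and 7.49 in LM8m, and 7.49 and 7.76 in MT8m. The widest gap lay inside a group, 0.55 between the LM8m arrays, while group means differed by at most 0.20. The averaged genotype difference was -0.17 ± 0.14, with a 95% interval from -0.49 to 0.15. Without LM8m replicate 1 it was -0.03, and the difference at 8 months turned from -0.14 to 0.14. Without the library labelled MT8m replicate 1 the 8-month difference was -0.001.

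The other Bace1 probe sets did not follow the main one. Probe set 1421824_at stayed between 5.89 and 6.26. Probe set 1421825_at read 4.27 and 4.19 in LM4m and 3.93 and 3.90 in LM8m, with MT arrays at 3.98 to 4.21 between these pairs or inside the LM4m pair. Its age difference in littermates was -0.32 (limma adjusted p = 1.00), which did not pass. Probe set 1450384_at ranged from 2.74 to 3.38.

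The γ-secretase complex joins a presenilin, the catalytic subunit, with nicastrin (Ncstn), Aph1 and Pen-2 (Psenen). Of its 4 genes here, Aph1a had the widest range and Ncstn the narrowest. Aph1a encodes a scaffold subunit that is needed to assemble the complex. Its main probe set (1424980_s_at) read 5.39 and 5.10 in LM4m, 4.50 and 4.78 in MT4m, 5.30 and 4.95 in LM8m, and 5.32 and 5.17 in MT8m. Both MT4m arrays lay below the 6 others, a separation whose share over all genes was not computed.

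The MT4m mean of Aph1a was 0.61 ± 0.18 below that of LM4m, 1.53-fold lower, with a 95% interval of the difference from -1.01 to -0.21. Its limma adjusted p of 0.944 did not pass, while its unadjusted p was under 0.05. In mutants the 8-month mean was 0.61 above the 4-month mean (limma adjusted p = 0.869), and between MT8m and LM8m the difference was 0.12 (95% interval -0.28 to 0.52). The interaction of genotype and age was 0.73 ± 0.25 (limma adjusted p = 1.00). With the library labelled MT8m replicate 1 left out, the ages differed by 0.53 in mutants and the interaction was 0.65, whose unadjusted limma p was then above 0.05. Without LM4m replicate 1 the 4-month difference was -0.47, and without MT4m replicate 1 it was also -0.47, and in both fits the unadjusted limma p was above 0.05.

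A second Aph1a probe set (1451554_a_at) read 5.09 and 4.67 in LM4m, 4.14 and 4.51 in MT4m, 4.68 and 4.41 in LM8m, and 4.77 and 4.95 in MT8m. MT4m was again below LM4m, by 0.55 (limma adjusted p = 0.944), although MT4m replicate 2 lay above LM8m replicate 2. Without LM4m replicate 1 that difference was -0.34. The third (1424979_at) ranged from 3.68 to 4.03 and gave -0.07 at 4 months. So the probe sets of 1 gene gave unequal differences. Averaged over its 3 probe sets, Aph1a differed by -0.41 at 4 months (limma adjusted p = 0.897).

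Psen2 encodes a presenilin, a catalytic subunit. Its main probe set (1425869_a_at) read 4.44 and 4.16 in LM4m, 4.15 and 4.10 in MT4m, 4.28 and 4.17 in LM8m, and 4.40 and 4.25 in MT8m. Both MT4m arrays were below the 6 others, by 0.01 between the nearest arrays, and the share of all genes with this order was not computed. The averaged difference was -0.04 ± 0.10. Its second probe set, 1431542_at, stayed between 2.23 and 2.53.

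Psenen encodes Pen-2, which triggers the self-cleavage that activates presenilin. Its only probe set (1415679_at) read 8.04 and 8.04 in LM4m, 7.85 and 8.05 in MT4m, 7.92 and 8.16 in LM8m, and 7.93 and 8.06 in MT8m. The groups overlapped at both ages. The averaged genotype difference was -0.07 ± 0.10, with a 95% interval from -0.29 to 0.16.

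Ncstn encodes nicastrin, the glycoprotein that admits substrates to the complex. The main one of its probe sets (1418570_at) read 2.56 and 2.68 in LM4m, 2.44 and 2.49 in MT4m, 2.49 and 2.48 in LM8m, and 2.50 and 2.55 in MT8m. These values lie close to the median of all probe set means, 2.47. The averaged difference was -0.06 ± 0.08. Its second probe set, 1444532_at, ranged from 1.26 to 1.92, with MT4m replicate 1 at the low end.

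Adam10 encodes the main α-secretase of neurons. The main one of its probe sets (1428103_at) read 7.65 and 7.69 in LM4m, 7.95 and 7.66 in MT4m, 7.55 and 7.60 in LM8m, and 7.36 and 7.88 in MT8m. The lowest value, on the library labelled MT8m replicate 1, and the highest, on MT4m replicate 1, both came from arrays labelled mutant. The genotypes overlapped at each age, at 8 months only through that library. Without it the 8-month difference was 0.31. The averaged difference was 0.09 ± 0.13, with a 95% interval from -0.21 to 0.39. Without the library labelled MT8m replicate 1 it was 0.22, and without MT8m replicate 2 it was -0.04.

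The second brightest Adam10 probe set (1450105_at, mean 4.00) gave the largest genotype difference of the 27 probe sets. It read 2.68 and 3.97 in LM4m, 4.72 and 4.60 in MT4m, 3.12 and 4.20 in LM8m, and 4.22 and 4.50 in MT8m. All 4 mutant arrays lay above all 4 littermate arrays, with LM8m replicate 2 and the library labelled MT8m replicate 1 next to each other. Of the 27 probe sets 1, this one, separated by genotype over both ages, where 3.69% of all genes did by their main probe sets. The averaged difference was 1.02 ± 0.31, 2.03-fold, with a 95% interval from 0.32 to 1.72 (limma adjusted p = 0.775), and at 4 months it was 1.34 ± 0.43 (limma adjusted p = 0.944). Neither passed.

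The arrays with the lowest values of that probe set, LM4m replicate 1 and LM8m replicate 1, were the ones with the highest 3′ excess of the Gapdh controls, and the part of this in the difference was not tested. Without LM4m replicate 1 the 4-month difference was 0.69 and the averaged one 0.70. Without LM8m replicate 1 the averaged difference was 0.75 and the 8-month one 0.16. Without the library labelled MT8m replicate 1 they were 1.09 and 0.84. The other Adam10 probe sets stayed between 2.31 and 2.71 (1460083_at) and between 2.01 and 2.58 (1450104_at).

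**Figure D2:**
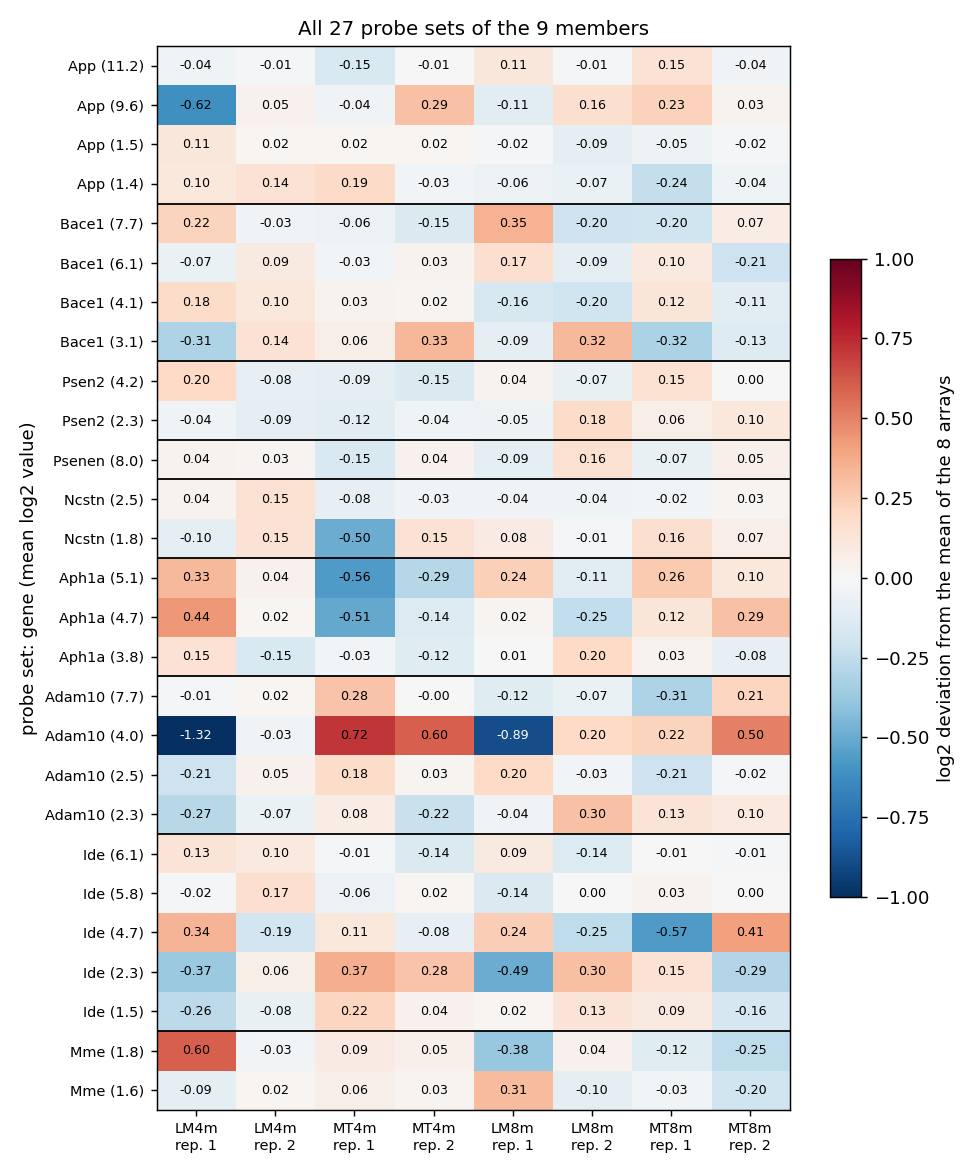
Deviation of each of the 27 probe sets (rows, with the mean log2 value of the probe set in brackets) from its own mean over the 8 arrays (columns), in log2 units, with colours saturating at 1. The Adam10 probe set with mean 4.0 is low on LM4m replicate 1 and LM8m replicate 1, and both brighter Aph1a probe sets are low on the MT4m arrays.

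Ide encodes a cytosolic and secreted peptidase of insulin and Aβ. The main one of its probe sets (1435140_at) read 6.21 and 6.18 in LM4m, 6.07 and 5.94 in MT4m, 6.17 and 5.95 in LM8m, and 6.08 and 6.08 in MT8m. MT4m lay below LM4m without overlap, by 0.19 ± 0.13 (95% interval of the difference -0.49 to 0.11), and at 8 months both MT8m arrays lay between the LM8m arrays. The averaged difference was -0.09 ± 0.09. The other 4 probe sets ranged from 5.69 to 6.01 (1423120_at), 4.09 to 5.07 (1441860_x_at), 1.84 to 2.70 (1423121_at) and 1.27 to 1.74 (1453988_a_at). The last 2 were higher in MT4m than in LM4m without overlap, by 0.48 and 0.30, opposite in sign to the main one, and neither passed.

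Mme encodes neprilysin, a membrane peptidase of the extracellular space. Both of its probe sets were dim, with the main one (1455961_at) at a mean of 1.79. It read 2.39 and 1.76 in LM4m, 1.88 and 1.84 in MT4m, 1.41 and 1.83 in LM8m, and 1.67 and 1.54 in MT8m. LM4m replicate 1 was the highest of the 8. The age difference averaged over genotypes was -0.35 ± 0.15 (limma adjusted p = 0.770), and the averaged genotype difference was -0.12 ± 0.15. Without LM4m replicate 1, the array with the highest Gapdh 3′ excess, they were -0.20 and 0.04. The second probe set, 1422975_at, lay between 1.44 and 1.95.

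None of the 27 probe sets passed in any contrast. At 4 months 0 of 27 passed in limma and 3 had an unadjusted p under 0.05, those of Aph1a (both brighter ones) and the second brightest of Adam10, where 0% of all probe sets passed and 4.86% had such a p. At 8 months the counts were 0 and 0, where 0.02% and 3.39% of all probe sets met the respective limit. For genotype averaged over ages they were 0 and 1, where 0.06% and 5.76% did. For age averaged over genotypes they were 0 and 1, against 0% and 6.48%.

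Age in littermates gave 0 passing and 1 with an unadjusted limma p under 0.05, against 0% and 3.45% of all probe sets, and age in mutants gave 0 and 2, against 0% and 5.7%. The interaction gave 0 and 2, against 0% and 2.58%. The moderated F test over the 4 groups gave 0 and 2, against 0.0133% and 4.89%. Leaving out 1 array at a time moved the number with an unadjusted limma p under 0.05. The 3 at 4 months became 0 without LM4m replicate 1 or MT4m replicate 1 and 5 without LM4m replicate 2. With any 1 array left out, the number ran from 0 to 2 at 8 months, 1 to 4 for averaged genotype, 0 to 2 for averaged age, 0 to 4 for age in littermates, 0 to 3 for age in mutants and 0 to 5 for the interaction.

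**Figure D3:**
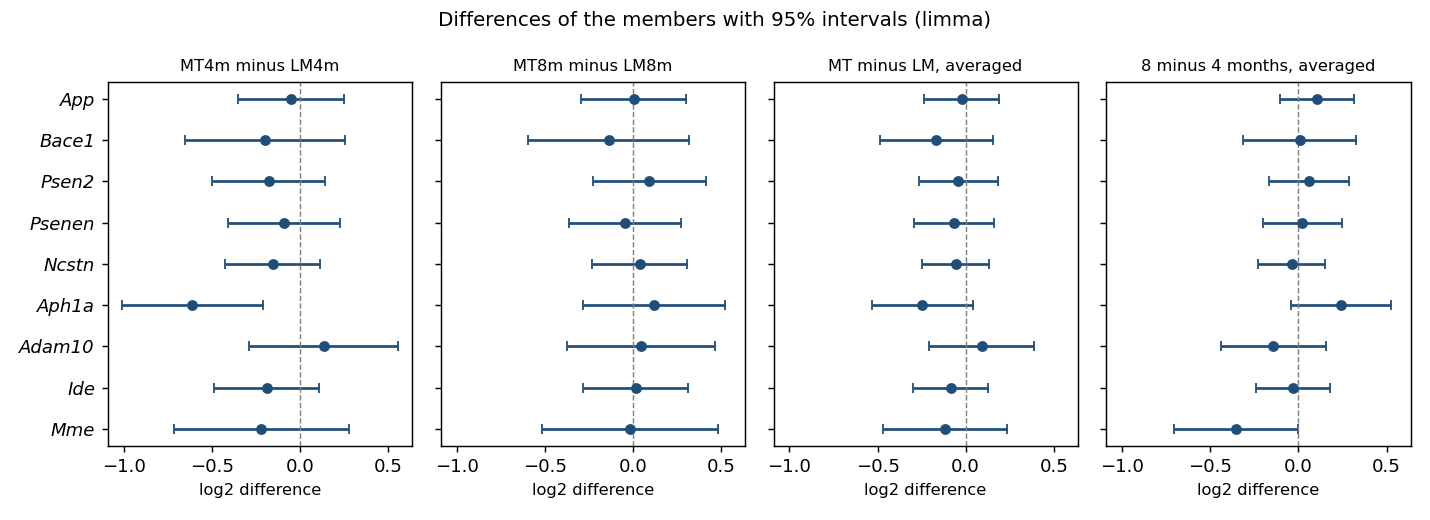
Differences of the 9 members on the log2 scale (x axis) in 4 contrasts, as the limma estimate (point) with its 95% interval (bar), 2 arrays a group. At 4 months the interval of Aph1a, -1.01 to -0.21, does not reach 0, while at 8 months every interval crosses 0.

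By sign, 8 of the 9 members were lower in MT4m than in LM4m, with a median difference of -0.18, where 55.2% of all genes were lower and the median was -0.02. The exception was Adam10. Without LM4m replicate 1 there were 7 of 9 with a median of -0.07, Mme then being higher, and the median of all genes was -0.02. MT4m had the lowest group mean for 7 members, and LM4m had the highest for 6. The shares of all genes with these orders were not computed. In littermates 8 of the 9 were lower at 8 than at 4 months, beside 55.0% of all genes. Without LM4m replicate 1 this was 4 of the 9, beside 53.0%. MT4m and LM4m did not overlap for 5 members (Bace1, Psen2, Ncstn, Aph1a and Ide, all lower in MT4m), where 37.7% of all genes did not overlap. At 8 months 3 of the 9 were lower, with a median of 0.02, and only Ncstn did not overlap, where 27.1% of genes did not. By their main probe sets 0 members separated by genotype over both ages and 0 by age, against 3.69% and 3.81% of genes. Of all 27 probe sets 1 separated by genotype, the second brightest of Adam10, and 2 by age, the dim ones of App.

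Ordered by their 4 group means, the 9 members gave 27 pairs of neighbouring groups. Neighbours in such an order are the closest groups, so counting wide gaps among them understates how far groups differ. The count was not made for all genes. The neighbours were further apart than the reach of the 95% interval of a difference, on either side of it, in 1 pair, Aph1a between MT4m and LM8m (0.49 against 0.40). That reach ran from 0.27 for Ncstn to 0.50 for Mme, so smaller differences could not be resolved with 2 arrays a group. It belongs to an unadjusted interval, and a difference beyond it, such as that of Aph1a at 4 months, could still not pass. App, for example, ran MT4m, LM4m, LM8m and MT8m from low to high, with steps of at most 0.08. Adam10 ran LM8m, MT8m, LM4m and MT4m, with steps of at most 0.14.

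The library labelled MT8m replicate 1 changed which member lay at the ends of the 8-month differences but not the number passing. At 8 months the members' differences ran from -0.14 (Bace1) to 0.12 (Aph1a) with it and from -0.09 (App) to 0.31 (Adam10) without it, and 0 passed in limma either way, with 0 at an unadjusted p under 0.05. Averaged over ages they ran from -0.24 (Aph1a) to 0.09 (Adam10) with it and from -0.28 (Aph1a) to 0.22 (Adam10) without it. Its removal left averaged differences of -0.07 for App, -0.10 for Bace1, -0.08 for Psen2, -0.04 for Psenen and Ncstn, -0.09 for Ide and -0.15 for Mme, and age differences of 0.06 for App and -0.39 for Mme. With each array left out in turn, the averaged genotype difference took both signs for App, Psen2, Adam10 and Mme and stayed negative for Bace1, Psenen, Ncstn, Aph1a and Ide.

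Spread within groups differed between members. The pooled within-group SD was 0.048 for Ncstn, 0.093 for Ide, 0.095 for App and 0.119 for Psen2 and Psenen, below the median of 0.159 over all genes. It was 0.196 for Aph1a, 0.212 for Adam10, 0.238 for Bace1 and 0.271 for Mme, above that median. All of these include the library labelled MT8m replicate 1. For Adam10 the MT8m arrays, that library and its replicate, lay 0.52 apart. Its other pairs lay 0.04 (LM4m), 0.29 (MT4m) and 0.05 (LM8m) apart.

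The wider pathway was read from 3 lists. Over all 18193 genes, by 1 probe set each, an unadjusted limma p under 0.05 was held by 5.74% for genotype at 4 months, 3.54% at 8 months, 6.72% averaged, 3.48% for age in littermates, 5.78% for age in mutants and 2.58% for the interaction, and the counts below stand beside these shares. The App relatives and adaptors hold homologues of App, adaptors that bind its cytoplasmic tail, and Itm2b and Itm2c of the BRI family. All 11 were measured and 0 passed in any contrast in limma. An unadjusted p under 0.05 was held by 1 for averaged genotype (Apba3), 2 for age in mutants (Apbb3, 0.37, and Itm2c, 0.32) and 1 for the interaction (Apbb3, 0.50). Their median averaged genotype difference was -0.04, beside -0.07 for the 9 members and -0.01 for all genes. Apba1 and Apba3, adaptors that bind the cytoplasmic tail of App, had averaged differences of -0.34 and -0.31, and Apbb2, of another adaptor family, had 0.15. The largest age differences were -0.21 for Apba3 and 0.18 for Itm2c, a relative of the BRI2 gene.

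Of 15 other secretases and their regulators, 13 had a named probe set and 0 passed in any contrast in limma, with a median averaged genotype difference of -0.02. An unadjusted p under 0.05 was held by 1 for genotype at 4 months and 1 averaged, both Tspan15, and by 2 for age in littermates, Adam17 (-0.55) and Tspan15 (-0.35). Tspan15 encodes a tetraspanin that binds ADAM10 and directs its traffic. It read 4.77 and 4.53 in LM4m, 3.99 and 4.30 in MT4m, 4.36 and 4.25 in LM8m, and 4.20 and 4.21 in MT8m. All mutant arrays but MT4m replicate 2 lay below every littermate array. The averaged difference was -0.31, and it ran from -0.38 to -0.23 with each array left out, -0.30 without the library labelled MT8m replicate 1. Tspan33 had -0.21 and Adam9, a candidate α-secretase, 0.18, and by age Adam17, another sheddase, had -0.27 and Tspan14 had -0.18.

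Of 8 other peptide-degrading enzymes all were measured and 0 passed in any contrast in limma, with a median averaged genotype difference of -0.10. An unadjusted p under 0.05 was held by 1 at 8 months and 1 averaged, both Ace. Ace encodes angiotensin-converting enzyme, a peptidase that can cleave Aβ. It read 3.77 and 3.71 in LM4m, 3.25 and 3.44 in MT4m, 3.69 and 4.16 in LM8m, and 3.27 and 3.10 in MT8m. All 4 mutant arrays, among them the library labelled MT8m replicate 1, lay below all 4 littermate arrays. Of all genes 3.69% separated by genotype over both ages. The averaged difference was -0.57 ± 0.12, the largest in size among the pathway genes and members by their main probe sets, with a limma adjusted p of 0.460, which did not pass. It ran from -0.68 to -0.45 with each array left out and was -0.61 without the library labelled MT8m replicate 1.

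Markers of the choroid plexus, a tissue beside the hippocampus that expresses Ace, moved the same way. The mean deviation of 9 such genes, all measured, from their own means lay between 0.74 and 1.94 on the littermate arrays. On the mutant arrays it lay between -1.34 and -1.04, with the library labelled MT8m replicate 1 at -1.18. The part of these genes in the Ace difference was not tested. Transthyretin (Ttr), the most abundant of these genes, was at 10.66 to 10.97 on the mutant arrays and 12.43 to 12.83 on the littermate arrays. In the same list Ece1, which encodes an endothelin-converting enzyme, had an averaged difference of -0.17 and an age difference of 0.14. The plasminogen activators had -0.17 by genotype (Plau) and -0.16 by age (Plat). Without LM4m replicate 1 the averaged differences of Apba1, Tspan33, Adam9 and Ece1 shrank to -0.20, -0.07, 0.05 and -0.06, and without the library labelled MT8m replicate 1 that of Plau was -0.08 and the age differences of Tspan14 and Plat were -0.01 and -0.05.

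**Figure D4:**
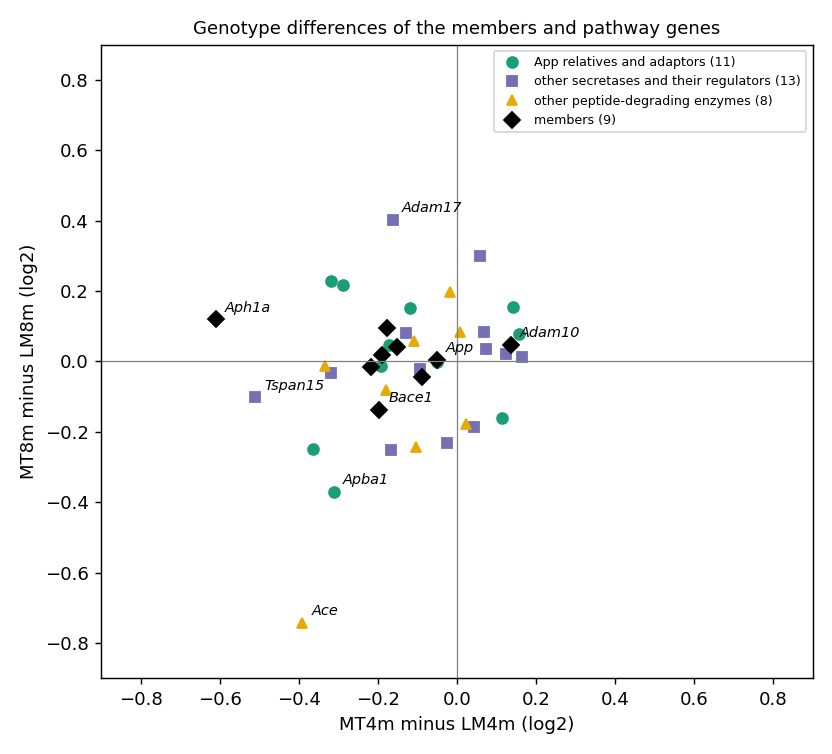
Genotype difference at 8 months (y axis) against that at 4 months (x axis), in log2 units, for the 9 members and the 32 measured genes of the 3 lists, 1 point a gene. Ace is the point farthest down, at -0.39 and -0.74, and Aph1a the farthest left, at -0.61 and 0.12.

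**Figure D5:**
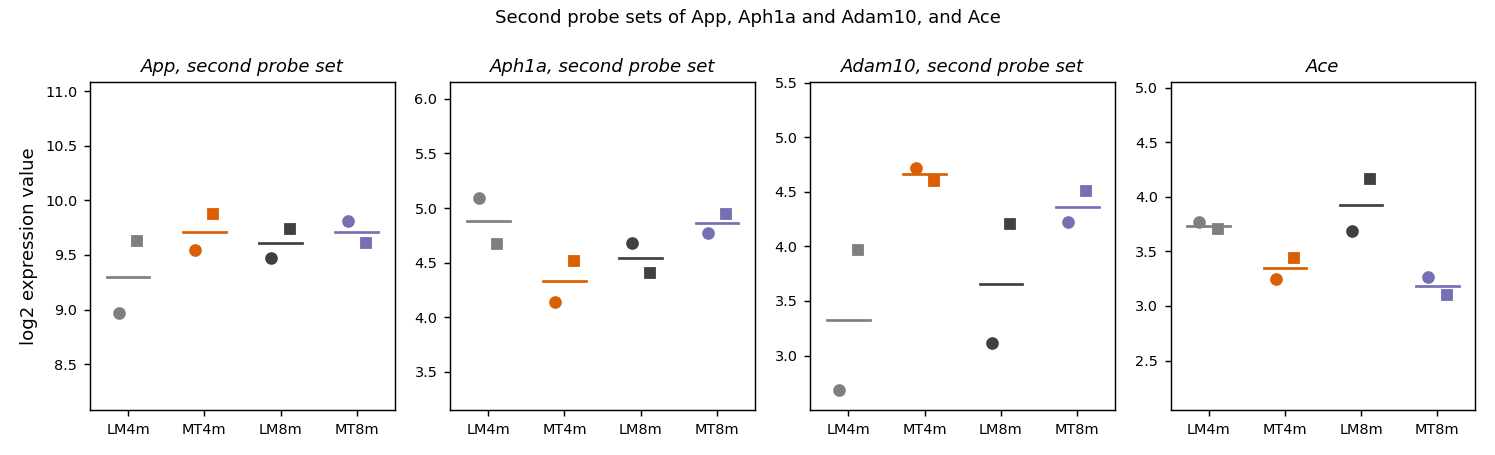
Log2 expression values of the second brightest probe sets of App, Aph1a and Adam10 and of Ace in the 4 groups (x axis). Replicate 1 is a circle, replicate 2 a square and the group mean a bar, and the panels span equal heights. Mutant arrays lie above the littermate arrays for Adam10 and below them for Ace.

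The genes whose values followed a member most closely over the 8 arrays were listed as a description, since all genes of an array share its normalization and RNA. Among 9095 genes, App had Scap (Pearson r = 0.985), Mtch1 (0.966) and Glg1 (0.963) as its nearest, and the 200th gene still had an r of 0.825. Bace1 had Bicral (0.979), Plscr3 (0.967) and Ammecr1l (0.966), with 0.809 at the 200th. Mme, ranked among 9096 genes, had Prkci (0.953), Poglut2 (0.933) and Nsmce1 (0.932), with 0.754 at the 200th. With 8 arrays, high values of r occur for many genes, as those of the 200th rank show. The likeness belongs to the main probe set and not to the gene. Against the gene's other probe sets, r was 0.27, -0.39 and -0.82 for App and 0.13, -0.08 and -0.47 for Bace1. For Mme, which was dim, it was -0.39, and Prkci ran only from 7.15 to 7.28.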

How the data were processed

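The deposited log2 values were made by the authors with RMA (affy in R, whose version is not given in the sources used here). They cover 45101 probe sets, among them 64 controls. With a median probe set mean of 2.47, low for this method, the zero point of the scale is unknown, and differences of dim probe sets may be compressed. Scanner files were not analysed here, and precision is limited by the number of arrays. Probe sets were named where the annotation gave 1 symbol (34945 of 45037, several for 932 and none for 9160), updated by Entrez identifier through a RefSeq table that held 34741.

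Group means of the 4 groups were fitted with limma 3.58.1 in R 4.3.3 (lmFit and eBayes, 4 residual degrees of freedom, two-sided), with contrasts for genotype, age and their interaction and a moderated F test, adjusted by Benjamini-Hochberg over 45037 probe sets. The fit was tested on simulated data. The members and lists were chosen with earlier results of these data known. Genes were named by a rule: all 9 members, and of each list the 3 genes with the largest averaged genotype difference and the 2 with the largest averaged age difference; Thy1 and Cst7 served as checks, and Ttr was named after its values were seen. Likeness was ranked over genes brighter than the median. Promoter windows came from RefSeq. Alternatives were cyclic loess, removal of dim probe sets, a prior with trend and robust fitting, a single probe set for each gene, fits of 2 groups, an additive model, a replicate block, the mean over a gene's probe sets and each array left out. Genotype contrasts could not be blocked, since each title number lies in 1 genotype.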

Additional observations from a re-analysis of the deposited data

How the results depend on the processing

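In every alternative 0 of the member probe sets tested passed. Without dim probe sets and with 1 probe set per gene, not all 27 were tested. Of 1084 recomputed differences of members, 87 had the other sign. Many of the 1084 could not change sign, so this count does not measure how stable the signs are. Another prior, another set of tested probe sets, or leaving out an array outside the contrast keeps the estimate and alters only its test. The counts over all probe sets moved more, for causes that were not tested. At 4 months 0 became 5 without dim probe sets, 4 with cyclic loess, 7 with the trended prior, 1 with 1 probe set per gene, 24 with the 2 groups alone, and 0 to 12 with an array left out. At 8 months 9 became 14 without dim probe sets, 22 with the trended prior, 0 with the 2 groups alone, 74 without LM4m replicate 1 and the library labelled MT8m replicate 1 together, and 1 to 95 with an array left out. Averaged genotype gave 27, then 82 without both and 5 to 142 with an array left out. The F test gave 6, then 10 without dim probe sets, 24 with the trended prior, 20 without both and 0 to 58 with an array left out.

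The replicate block by title number gave 0 in each age contrast and the interaction, as did the fits without it. Same-numbered arrays deviated together in littermates (r = 0.24) and apart in mutants (r = -0.17), and a replicate block with the mutant numbers crossed, chosen after seeing the data like the removal of both arrays, gave 3 for averaged age, 3 in littermates, 2 in mutants and 1 for the interaction. Other counts from 0 were 2 for age in mutants with the trended prior, 0 to 1 for averaged age, 0 to 2 for age in mutants and 0 to 1 for the interaction with an array left out. The filter on dim probe sets removed Mme and the dimmer probe sets of App, Psen2, Ncstn, Adam10 and Ide. With 2 arrays a group, differences smaller than the reach of the unadjusted intervals could not be told from 0. Larger ones could also fail to pass, as Aph1a did at 4 months (-0.61, limma adjusted p = 0.944).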
